A study of Arabidopsis thaliana with 4 samples.

Results

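The tetraspanin genes TET2 to TET10 of Arabidopsis thaliana were followed on 4 arrays of seedling RNA, 1 for wild type and 1 for each of 3 mutants without trichomes, gl1, ttg1 and gl3egl3. The members were chosen by symbol, as probe sets that name 1 gene with a symbol from TET1 to TET10. The annotation used here names 9 such genes among 13350, each with 1 probe set, and TET1 is not named. The study asked which transcripts are enriched in trichomes, the hairs of the leaf surface, by setting hairless mutants beside wild type. Plants grew at 22 °C in 16 h of light and 8 h of darkness. Per the labels, the wild-type, ttg1 and gl3egl3 seedlings were 20 days old (no age is stated for gl1), and only green parts were taken, which is not stated for gl3egl3. They mention the L.er wild type, the Landsberg erecta accession, for ttg1 and gl3egl3, and no accession for gl1 and wild type. No allele is given, and the design text spells the double mutant gl3egl1 where the sample title has gl3egl3, which was followed here.

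Tetraspanins are small membrane proteins that cross the membrane several times, with a short and a long loop on the outer side, and gather partner proteins into membrane microdomains. In Arabidopsis, TET8 and TET9 are known from extracellular vesicles, which carry small RNAs out of the cell and into fungal pathogens, and TET8 is the common marker of those vesicles. TET5 and TET6 act redundantly to limit organ size, and TET3 has been found at plasmodesmata, the channels between plant cells. TET3 and TET4, TET5 and TET6, and TET8 and TET9 are closely related gene pairs. The mutated regulators GL1 (of the MYB family), TTG1 (with WD40 repeats), GL3 and EGL3 (both bHLH) form the complex that starts trichome fate.

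All values are log2 probe set signals. Those of TET2 to TET10 are given after quantile normalization and, for most, then as deposited. Values of other genes are quantile normalized unless stated. The deposited columns differed in level, and over 22746 probe sets the median difference from wild type was 0.32 for gl1, 0.30 for ttg1 and 0.63 for gl3egl3. Testing was limited to the 12601 probe sets whose highest value was at least 6.26, the median over all probe sets and arrays. TET3, TET7, TET8 and TET10 reached it on all 4 arrays, TET4 only on the gl3egl3 array, and TET2, TET5, TET6 and TET9 on none. The gl3egl3 array stood at least 2-fold (1 on the log2 scale) outside the other 3 at 576 probe sets, against 112 for wild type, 25 for ttg1 and 21 for gl1. RCA, which encodes Rubisco activase and is the 1 of 17 green tissue markers named here, lay between 12.19 and 12.30 on the 4 arrays. Its gl3egl3 value was 0.11 above wild type after quantile normalization and 0.52 above it as deposited. Of 13 root markers, PYK10 (10.91 to 11.34) and EXPA7 (3.26 to 3.39) are named here. In these whole-tissue samples, fewer cells of a type and less RNA per cell cannot be told apart.

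**Figure D1:**
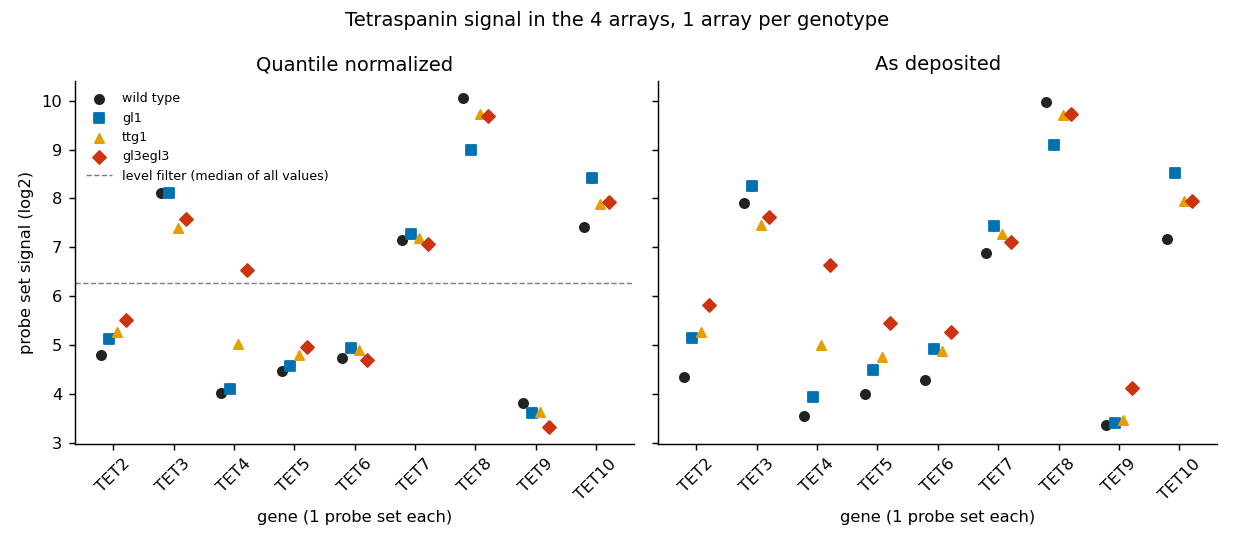
Probe set signal (log2, vertical axis) of the 9 tetraspanin genes (horizontal axis) on the wild type, gl1, ttg1 and gl3egl3 arrays, 1 point per array, quantile normalized on the left and as deposited on the right. TET4 spans 2.54 on the left and 3.08 on the right, while TET7 spans 0.20 and 0.55, and signals of different genes come from different probes and are not comparable with one another.

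TET8 (AT2G23810), the vesicle marker, was lower in all 3 mutants than in wild type, most of all in gl1. Wild type was at 10.07, gl1 at 8.99, ttg1 at 9.72 and gl3egl3 at 9.69. The ttg1 and gl3egl3 arrays lay close together (gl3egl3 minus ttg1 was -0.032), between gl1 below and wild type above. As deposited, the values were 9.98, 9.09, 9.72 and 9.74 in the same order of arrays. The gl1 difference of -1.07 was -0.89 as deposited, which is short of 2-fold, and -1.20 relative to the deposited median shift. Differences at least that far below wild type occurred at 1.6% of the 12601 probe sets. The mean over mutants was -0.60 ± 0.41 (SD, n = 3 mutants).

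limma's test of the mutants as 1 class did not call TET8 (adjusted p = 0.856, Benjamini-Hochberg over all probe sets; 95% interval -1.60 to 0.41). That interval holds 0, and without gl1 the estimate was -0.36. Of 26 rapid touch and wound markers, 3 are named here, STZ, CML23 and WRKY53. All were lower in every mutant than in wild type, as TET8 and 24.9% of all tested probe sets were. The marker list was chosen with earlier results of these data known. The log2 signals of these 3 markers summed to 24.89 in wild type against 19.91 for gl1, 21.18 for ttg1 and 20.82 for gl3egl3. The part of that response in the TET8 values was not tested. TET9 (AT4G30430), its close relative, had wild type at 3.81, gl1 at 3.60, ttg1 at 3.62 and gl3egl3 at 3.32, all below the level tested. As deposited, TET9 was at 3.36, 3.41, 3.47 and 4.13, so its order turned over with the scaling and no direction can be given.

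TET4 (AT5G60220) had the widest range of the 9 genes in either set of values, with high signal in gl3egl3 and an intermediate value in ttg1. Wild type was at 4.01, gl1 at 4.09, ttg1 at 5.02 and gl3egl3 at 6.55, and as deposited these values were 3.55, 3.93, 5.001 and 6.63. Wild type and gl1 lay close together, and both remaining arrays were above them in either set of values. The gl3egl3 value exceeded wild type by 2.54, or 5.80-fold (3.08 as deposited), and ttg1 exceeded it by 1.007, barely past 2-fold (1.45 as deposited). Between those mutants the distance was 1.53, with gl3egl3 above. Differences at least as far above wild type were found at 0.817% of probe sets in gl3egl3 and 1.76% in ttg1. TET4 passed the level filter only through the gl3egl3 array where it is high, so it had to differ once it was tested. These shares and its p-values and intervals are given as descriptions that support nothing.

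The mean TET4 signal of ttg1 and gl3egl3 was 5.78 against 4.05 in wild type and gl1, a difference of 1.73 ± 0.49 (SE). This missed limma's threshold after adjustment (adjusted p = 0.329; unadjusted p = 0.0125), while the 95% interval for the gene alone ran from 0.53 to 2.93. With no level filter, so that entry did not depend on the gl3egl3 value, limma's adjusted p was 0.492. In the deposited values, with the filter, the difference was 2.08 and the limma adjusted p 0.0448, and over the alternatives the adjusted p ran from 0.00616 to 1. The lowest of these came without the ttg1 array, where 707 probe sets were called in all. Without the gl3egl3 array the difference was 0.97. The level filter was still taken over all 4 arrays, so TET4 was in that fit only through its gl3egl3 value. With gl3egl3 alone against the other 3 arrays the difference was 2.17 ± 0.45 (SE, limma adjusted p = 0.106; 0.074 with no level filter and 0.00616 to 0.259 over the alternatives that tested it). That array also had the largest 3′ minus 5′ difference of the actin control, 4.23 against 3.56 to 3.74, and the part of this in the TET4 value was not tested.

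TET3 (AT3G45600), the plasmodesmal relative of TET4, ran the other way, with lower signal in ttg1 and gl3egl3. Wild type and gl1 were both at 8.11, ttg1 at 7.39 and gl3egl3 at 7.59, and as deposited at 7.90, 8.25, 7.46 and 7.61. The ttg1 and gl3egl3 arrays were below both of the others under either scaling, while the order of wild type and gl1 changed. Against wild type, ttg1 was lower by 1.65-fold (-0.72, or -0.44 as deposited) and gl3egl3 by 1.44-fold (-0.52, or -0.29 as deposited). The mean of ttg1 and gl3egl3 was 7.49 against 8.11 in wild type and gl1, a difference of -0.62 ± 0.22 (SE). limma did not call it (adjusted p = 0.455; unadjusted p = 0.0296; 0.302 to 1 over the alternatives), and its 95% interval was -1.16 to -0.086.

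Of the 5 tested tetraspanins, TET4 was higher and TET3 lower with no overlap between ttg1 and gl3egl3 on the one side and wild type and gl1 on the other. Such separation occurred upward at 22.9% and downward at 17.9% of all probe sets, so it is common in these 4 arrays. limma called 0.0397% of probe sets higher and 0.381% lower in this comparison, 53 in all, and 0 of the 5 tetraspanins. TET3 had an unadjusted p under 0.05, as 5.79% of probe sets did downward (3.52% did upward). TET4 did too, but it entered the test only through its high gl3egl3 value, so nothing is read from its p or its separation. The labels mention the Landsberg erecta wild type for these same mutants, and genotype and accession cannot be told apart here.

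TET10 (AT1G63260), for which RefSeq lists 6 transcripts that 1 probe set cannot tell apart, was higher in every mutant than in wild type. Wild type was at 7.42, gl1 at 8.41, ttg1 at 7.89 and gl3egl3 at 7.93, and as deposited at 7.17, 8.52, 7.95 and 7.94. The gl1 array was the highest in both sets, and ttg1 and gl3egl3 lay 0.044 apart. The gl1 difference of 0.996 came to 1.99-fold, just under the 2-fold size rule, and was 1.35 as deposited. In all, 0.992% of probe sets were at least as far above wild type. The mean over mutants was 0.66 ± 0.29 (SD, n = 3 mutants), with a 95% interval from -0.15 to 1.47. limma did not call it (adjusted p = 0.856; unadjusted p = 0.0888; 0.205 to 1 over the alternatives). Among the mutants, gl1 was thus furthest from wild type for both TET10 and TET8, above it for TET10 and below it for TET8. For both genes, wild type was at the opposite end of the 4 arrays.

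TET7 (AT4G28050) varied least among the tested genes. Wild type was at 7.16, gl1 at 7.28, ttg1 at 7.20 and gl3egl3 at 7.08, and as deposited 6.88, 7.43, 7.28 and 7.12. The mean over mutants differed from wild type by 0.029 ± 0.10 (SD, n = 3 mutants), and the value was -0.045 with each array's median subtracted. As deposited, without removal of the array-wide shift, it was 0.40. The limma 95% interval was -0.56 to 0.62 (adjusted p = 0.974), for the mean of 3 genotypes against a lone wild-type array assumed to vary like them. For gl3egl3 against the other arrays the interval was -0.63 to 0.37.

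**Figure D2:**
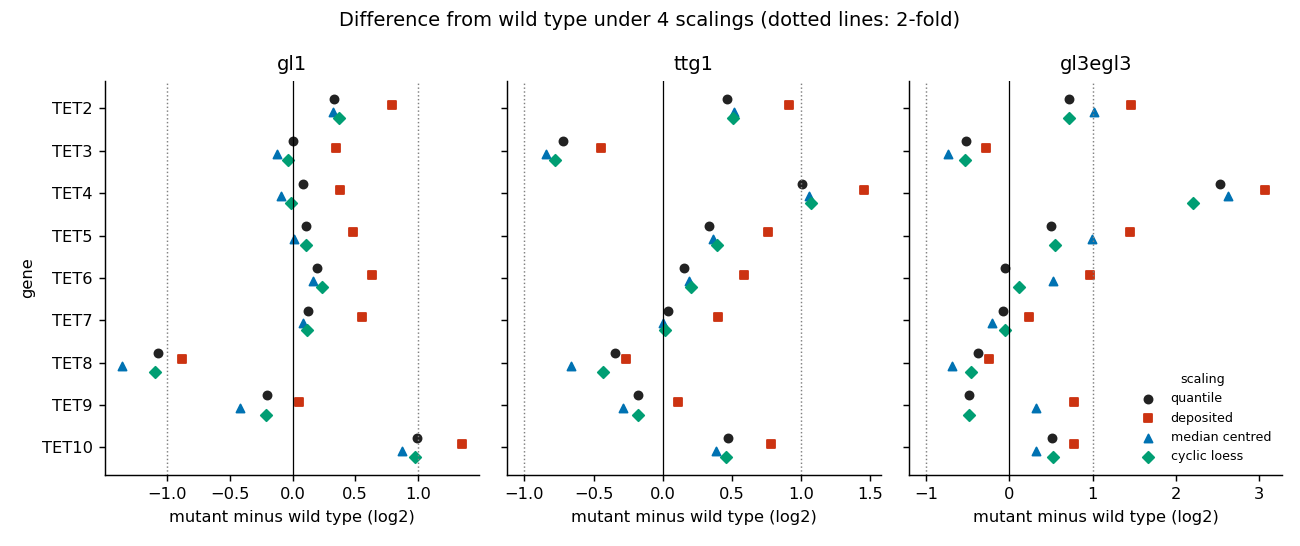
Difference from wild type (log2, horizontal axis) of the 9 genes (vertical axis) in gl1, ttg1 and gl3egl3, 1 panel each, under 4 scalings shown by symbol, with dotted lines at 2-fold. TET4 in gl3egl3 lies between 2.21 and 3.08 under all 4, while TET9 in gl3egl3 lies at -0.49 after quantile normalization and 0.77 as deposited.

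The remaining genes were below the level tested on all 4 arrays, and array noise limits what their signals can show. TET2 (AT2G19580) had wild type at 4.80, gl1 at 5.13, ttg1 at 5.26 and gl3egl3 at 5.52, above wild type in each mutant under all 4 scalings. TET5 (AT4G23410), which limits organ size together with TET6, was at 4.46, 4.57, 4.80 and 4.97 in the same order, with the same order of arrays as TET2. TET6 (AT3G12090) was at 4.74, 4.94, 4.90 and 4.69, and its gl3egl3 value was the lowest here and the highest, 5.26, as deposited. For TET2 and TET5 the gl3egl3 differences were 0.72 and 0.51, and 1.46 and 1.45 as deposited, where the median over all probe sets below the level tested was 1.09. Relative to the deposited median over all probe sets they were 0.83 and 0.82. Between quantile normalized and deposited values, the gl3egl3 differences of TET3, TET8 and TET10 moved less, from -0.52 to -0.29, from -0.38 to -0.24 and from 0.52 to 0.77. With each array's median subtracted they were -0.74, -0.69 and 0.32.

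Counted together, the tested tetraspanins lay on both sides of wild type in every mutant. Of 5 genes, TET8 was at least 2-fold lower in gl1 (1.9% of all probe sets were), and TET4 was at least 2-fold higher in ttg1 (1.79%) and in gl3egl3 (6.63%). TET4 is among the 5 only through its high gl3egl3 value, so nothing is read from its place in these counts. None was at least 2-fold higher in gl1 (0.968%), lower in ttg1 (3.78%) or lower in gl3egl3 (7.37%). In the deposited values TET10 in gl1 took the place of TET8 (5.33% of probe sets were 2-fold higher and 0.851% lower). TET4 kept both of its differences there, with 6.28% of probe sets higher and 2.33% lower in ttg1, and 12.9% and 3.75% in gl3egl3. The median difference of the 5 genes was 0.082 in gl1, 0.041 in ttg1 and -0.077 in gl3egl3, against 0.014, 0.039 and 0.017 over all tested probe sets. Over all 9 genes it was 0.11, 0.16 and -0.055. The 3 comparisons share the wild-type array.

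Against wild type, TET4 and TET10 were higher in all 3 mutants and TET3 and TET8 lower, where 30% of all probe sets were higher in all 3 and 24.9% lower. The gl1 difference of TET3 was -0.0011, and in the deposited values gl1 was above wild type by 0.35. The gl1 difference of TET4 was 0.082 here, 0.38 as deposited, and below 0 with each array's median subtracted or after cyclic loess. limma called 0% of the 12601 probe sets in this comparison, so 0 of the 5, with 2.72% higher and 2.38% lower at an unadjusted p under 0.05 and none of the 5 among them. In the comparison of gl3egl3 with the other arrays limma called 0.611% of probe sets higher and 0.103% lower, and again 0 of the 5. At an unadjusted p under 0.05 there were 9.76% of probe sets upward and 9.15% downward. TET4 was among them (0.00416), but only its gl3egl3 value let it into the test, so this is no evidence of a difference.

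**Figure D3:**
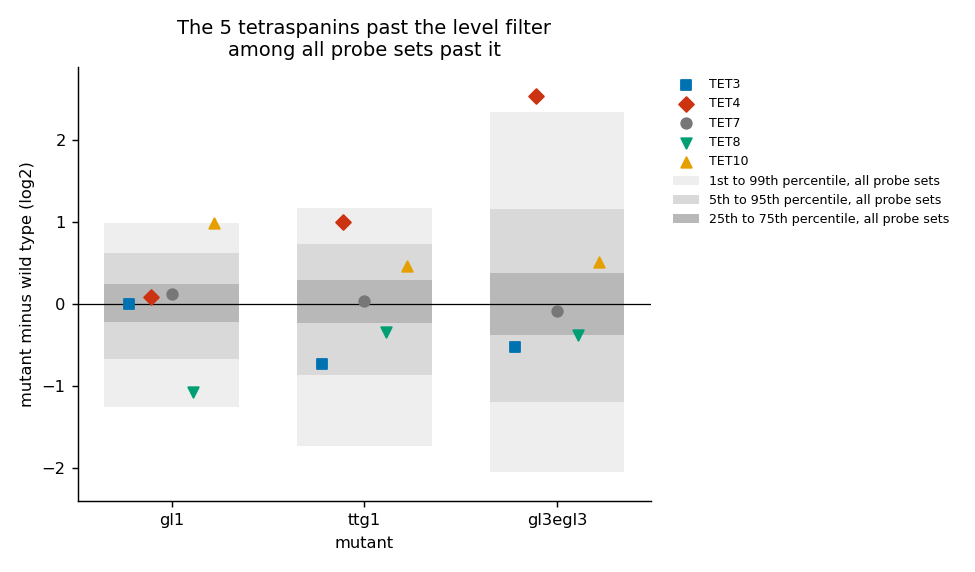
Mutant minus wild type (log2, vertical axis, quantile normalized) in each mutant (horizontal axis), with the 5 tested tetraspanins as symbols over grey bands that hold the middle of all 12601 tested probe sets. TET4 lies above the 99th percentile of 2.35 in gl3egl3, TET10 at about the 99th percentile of 0.99 in gl1, and TET7 inside the darkest band in all 3 mutants. TET4 is among the tested probe sets only through its gl3egl3 value, so its place in that mutant is a description.

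**Figure D4:**
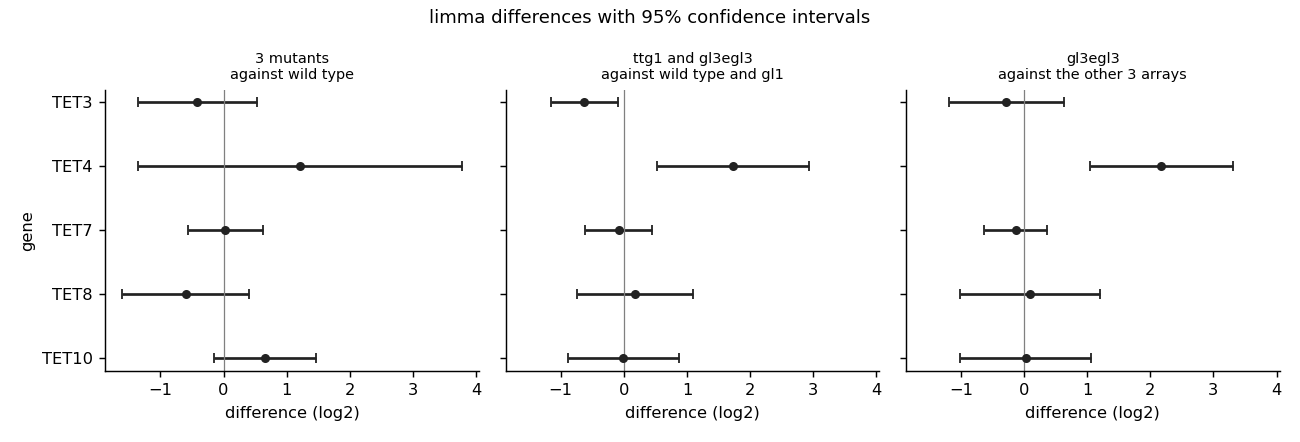
limma differences (log2, horizontal axis) of the 5 tested tetraspanins (vertical axis) with 95% confidence intervals, for the mutants against wild type, for ttg1 and gl3egl3 against wild type and gl1, and for gl3egl3 against the other arrays. The intervals that leave out 0 are those of TET3 and TET4 in the middle panel and of TET4 on the right; they are intervals of single genes, TET4 entered only through its gl3egl3 value, and 0 of the 5 was called after adjustment.

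Of 13 other tetraspanin entries listed, TET11 to TET16 are named here, and 0 of these 6 reached the level tested. TET11 and TET12 are known from pollen, and TET13 from roots. All 6 were above wild type in gl3egl3, by 0.039 to 0.85 with a median of 0.51, where 44.9% of all probe sets below the level tested were above wild type (95.7% as deposited). As deposited, the 6 were higher by 1.23 to 2.02, where the median over such probe sets was 1.09. In gl1 the median was 0.073 and in ttg1 0.14, with 4 of 6 above wild type in each, where 49.3% and 48% of such probe sets were. Their highest value on any array was 4.99, for TET14 in gl3egl3. Of 17 trichome markers 4 are named here. Their log2 signals summed to 24.28 for wild type, 23.67 for gl1, 24.17 for ttg1 and 27.92 for gl3egl3. Such a sum mixes different probes and can follow 1 gene. Against wild type, gl3egl3 was higher by 2.81 for TRY, 0.52 for AN, 0.23 for GIS and 0.090 for SIM. In gl1 and ttg1, AN (0.36 and 0.022) and GIS (0.20 and 0.099) were above wild type and SIM below it (-0.56 and -0.35). TRY differed by -0.60 in gl1 and 0.12 in ttg1. GIS was below the level tested, and TRY reached that level only in gl3egl3. TRY, an inhibitor of trichome fate, was at 8.24 in gl3egl3 and at 4.84 to 5.56 on the other arrays, so it was high on the same array as TET4. Of 10 guard cell markers 3 are named here, with summed levels from 14.76 in gl3egl3 to 15.76 in wild type. These 3 did not move together. FMA had its highest value, 7.46, on the wild-type array, against 6.87 (gl1), 6.58 (ttg1) and 6.77 (gl3egl3). MUTE and SPCH stayed below the level tested. MUTE exceeded its wild-type value on every mutant array (0.015 to 0.35). SPCH did so for gl1 (0.057) and ttg1 (0.47), while its gl3egl3 difference was -0.36 (0.82 as deposited). Probe sets are named here for 0 of 5 tetraspanin partner genes, 0 of 20 vesicle and secretion genes and 1 of 18 sphingolipid genes, LCB2, whose values were 7.74 for wild type and 7.97 to 8.16 for the mutants.

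The patterns most like those of TET4 and TET8, the genes with the widest ranges after quantile normalization, were sought among 6797 other tested probe sets that name 1 gene. Likeness was the root mean square distance between the 4 values after each gene's own mean was subtracted. For TET4 the closest were AT4G04010, AT3G44500 and AT2G03080, at distances of 0.062, 0.082 and 0.087, and RefSeq annotates all 3 as pseudogenes. Like TET4, these 3 reached the level tested only on the gl3egl3 array. Only tested probe sets were searched, so low-level genes could match TET4 only if they were high there. Its likeness and its count of neighbours therefore support nothing. AT4G04010 had wild type at 4.80, gl1 at 5.004, ttg1 at 5.84 and gl3egl3 at 7.48, the same order as TET4. For TET8 the closest were AT1G66760, AT3G15760 and AT5G66070, at 0.029, 0.060 and 0.072, all protein-coding. AT1G66760 had wild type at 7.46, gl1 at 6.32, ttg1 at 7.07 and gl3egl3 at 7.08. Within a distance of 0.25 there were 34 probe sets for TET4 and 249 for TET8. These are descriptions over 4 arrays.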

How the data were processed

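The authors deposited log2 signals, 1 column an array, made with RMA per the submitters' processing notes. The version, settings and scaling between columns are not stated in the sources used. All deposited wild-type values are multiples of 0.005 (to within 1e-06), so that column may be rounded or a mean. Of 22810 probe sets, 64 controls were left out. Symbols came from the platform annotation (13513 probe sets name 1 gene, 503 several, 8730 are unnamed here), updated to RefSeq TAIR10.1 for 13436. Values were quantile normalized and fitted with limma 3.58.1 in R 4.3.3 (lmFit, eBayes, Benjamini-Hochberg at 0.05, two-sided). The fit was first run on simulated data with large planted changes and independent noise. That run does not test how well 1 array stands for a genotype. Figures were drawn with matplotlib 3.10.9. With 1 array per genotype, the spread is that between genotypes, the lone array of a fit is assumed to vary like the others, and nothing says that samples came from separate plantings. Precision is limited by how few arrays there are. The plan took quantile normalization as the main scaling because an earlier analysis had shown unequal columns. All genes of the symbol rule are named, by the probe set with the highest mean, with those of the fixed lists and the 3 patterns nearest to the members with the widest ranges after quantile normalization. The genes, lists and tests were chosen with earlier results of these data known. Alternatives were 3 other scalings, no level filter, an intensity trend, the mean over probe sets and leaving out arrays. Where arrays were left out, the level filter was still taken over all 4 arrays. No sequence is shown.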

Additional observations from a re-analysis of the deposited data

How the results depend on the processing

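With 5 tested genes in the main setting, limma called 0 tetraspanins in the comparison of the mutants with wild type under every alternative run. It called 0 of all probe sets there too, so this count says nothing about tetraspanins in particular. No paired analysis was possible because each genotype has 1 array. For ttg1 and gl3egl3 against wild type and gl1, the count was 1 (TET4, 2.08) in the deposited values, where 136 of 12810 probe sets were called in all. TET4 entered that test only through its gl3egl3 value, so nothing is read from its call. Without ttg1, this comparison and that of gl3egl3 alone are the same fit, with a TET4 difference of 2.49. The median difference of 0.029 was 0.40 in the deposited values, which keep an array-wide shift, and -0.21 after cyclic loess, where TET4 missed the level filter and 1 difference rather than 3 was at least 2-fold; it ran from -0.018 to 0.083 with arrays left out. In the deposited values without gl3egl3, an alternative chosen after seeing the data, it was 0.48. Of 261 single-gene values under alternatives, 28 changed sign and 3, all of TET4, newly passed the threshold, of which 2 are that same fit. With no level filter, with an intensity trend and with the mean over probe sets, each difference stays as in the main setting, so those values could not change sign. The cause of the changes was not tested. In the mutants against wild type, TET9 was 0.31 as deposited (0.081 without gl3egl3), and TET7 was -0.045 with medians subtracted and -0.018 to 0.083 with arrays left out. For ttg1 and gl3egl3 against the other pair, the deposited values gave 0.47 for TET6, 0.041 for TET7, 0.42 for TET9 and 0.10 for TET10 (0.27, 0.12, 0.086 and 0.106 without gl3egl3). Medians subtracted gave 0.28 for TET6 and 0.23 for TET9, and cyclic loess gave 0.045 for TET6 and 0.0017 for TET10. With arrays left out, that comparison ran from -0.15 to 0.059 for TET6, -0.36 to 0.71 for TET8 and -0.50 to 0.49 for TET10. For gl3egl3 alone, TET6 was 0.57 and TET9 0.72 as deposited. With medians subtracted TET6 was 0.41, TET8 -0.020, TET9 0.56 and TET10 -0.10, and TET8 ran from -0.20 to 0.16 with arrays left out. Each member has 1 probe set, so the mean over probe sets changed nothing. Signals below the level filter limit TET2, TET5, TET6 and TET9.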
